A study of Mus musculus with 6 samples.

Results

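The miRNA cluster in an intron of Sfmbt2 on mouse chromosome 2 was examined in extracellular vesicles from muscle. Its members were all rows of the deposited count table whose locus lies in the Sfmbt2 gene region, by position alone and without use of any measured value. They comprised 139 of the 2110 mature miRNA loci in the table, from 72 hairpins, and 70 of its 1966 mature miRNA identifiers. Copies of an identifier at several loci were summed, so that each identifier was counted once. Mature sequences of the cluster loci were not at hand, so that different identifiers with the same sequence could not be recognised or joined. The study sequenced small RNA from vesicles, which the labels call exosomes, of young and of old mouse muscle, with 3 libraries in each group. The labels state neither a strain, genotype or treatment nor the ages, the sex, the muscles or the isolation. Whether the replicates are separate animals is also not stated, and the p-values therefore reflect the variation among the libraries at hand, which could be technical. Vesicles from fewer cells of a type and less RNA per vesicle cannot be told apart in such bulk material.

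Sfmbt2 encodes a Polycomb group protein, a repressor of transcription, and the gene is imprinted in the mouse, with expression from the paternal allele in early embryos and the placenta. The intron carries a large block of repeated miRNA hairpins that is found in rodents and is best known from placenta and embryonic stem cells. Each hairpin is cut into a duplex of a 5p and a 3p arm, and one arm is usually loaded into an Argonaute protein while the other is degraded. The loaded arm finds its target transcripts mainly through its seed, the bases from position 2 to 8.

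All 139 loci carried names of 4 families, miR-297, miR-466, miR-467 and miR-669. The loci lay on the plus strand between 10466677 and 10518240 of chromosome 2 (mm10), a stretch of 51.56 kb that starts 96.2 kb downstream of the first base of Sfmbt2. This stretch was inside a single intron of 62472 bases (chr2:10461473-10523944), which is intron 10 or 11 of 23-exon transcripts in GENCODE. No locus of the cluster overlapped another locus of the table. There were 53 identifiers with 1 locus and 17 with several, and the latter took up 86 of the loci. The 10 copies of miR-467a were spaced by 2462 bases at the median (2413 to 4880), which shows the tandem arrangement of the block.

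**Figure D1:**
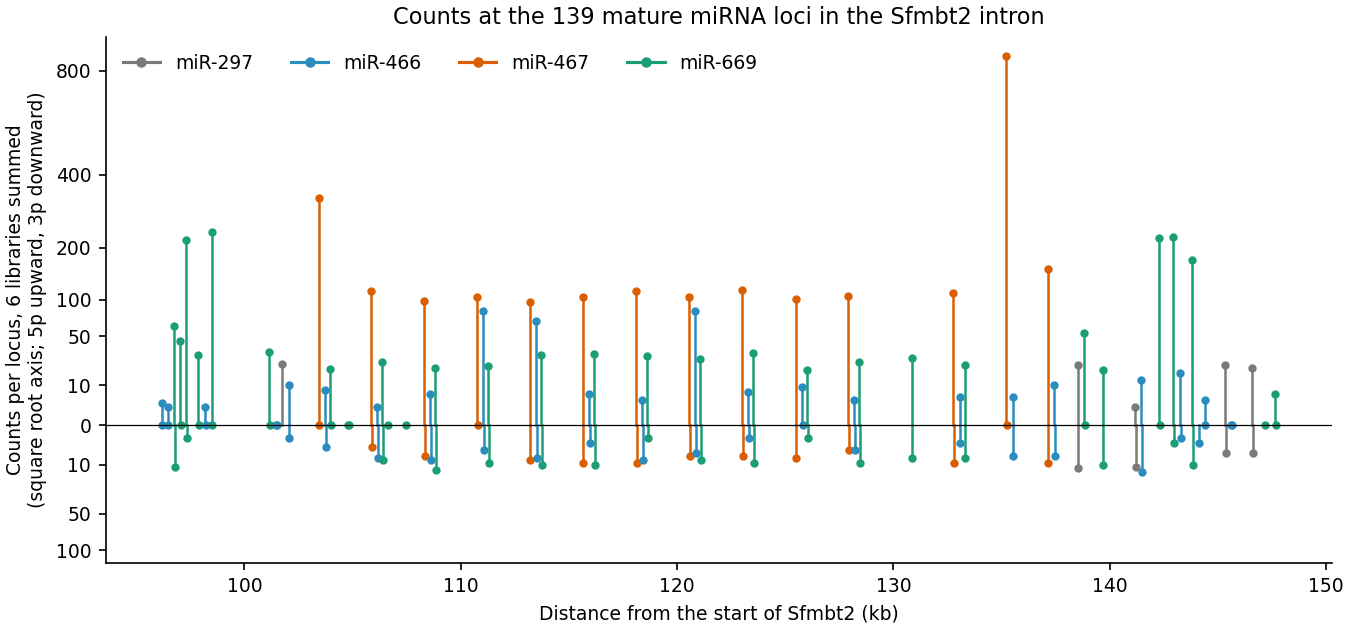
Counts at each of the 139 loci of the cluster, summed over 6 libraries, against the distance from the start of Sfmbt2 in kb; 5p arms point upward and 3p arms downward on a square root axis, coloured by family. The tallest line is the single miR-467e-5p locus with 870 counts, and the evenly spaced lines near 100 are the miR-467a-5p copies.

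Members of the same families also occur outside the intron, at 11 further loci. Mature sequences of 8 of these were listed in RefSeq (GRCm38.p6) and are shown because they give the low-complexity look of the families and mark what was almost not seen in these vesicles. The seed is in capitals, 5′ to 3′.
miR-466j: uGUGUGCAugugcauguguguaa
miR-466k: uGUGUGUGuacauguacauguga
miR-466q: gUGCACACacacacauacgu
miR-466i-3p: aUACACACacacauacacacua
miR-467f: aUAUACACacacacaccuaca
miR-467g: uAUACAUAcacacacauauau
miR-467h: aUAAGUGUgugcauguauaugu
miR-669n: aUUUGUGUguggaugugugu

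These 8 sequences of 20 to 23 bases had 8 distinct seeds, so that a shared family name did not stand for a shared seed among them. Most of the 8 names give no arm, and 5p and 3p arms of a family can differ in seed for that reason alone. They come from single loci on chromosomes 3, 5, 9, 10, 11 and 13. Over the 6 libraries, 6 of the 8 loci were at 0, while miR-466i-3p and miR-466k had 1 count each. The exception outside the intron was a copy of miR-297a-5p on chromosome 7 with 11 counts, which belongs to a cluster identifier and was summed with it. The cluster itself held 4966 counts, 4955 of them inside the intron.

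The libraries held between 904892 (old replicate 1) and 1706396 (young replicate 2) counts, and a single count was worth 0.605 to 0.999 CPM (counts scaled to a common library size) after TMM scaling. All 6 of 6 muscle markers were detected, at a summed 51154 to 60525 CPM in young and 49557 to 89546 CPM in old libraries. The means in young and old were 2262 and 4853 CPM for miR-133a-3p and 1759 and 2861 CPM for miR-1a-3p. They were 771 and 1525 CPM for miR-499-5p and 591 and 765 CPM for miR-133b-3p. Most of the sum therefore came from miR-206-3p and miR-208b-3p. The summed red blood cell markers miR-451a and miR-144-3p had 41293 to 43084 CPM in young and 40856 to 48375 CPM in old libraries. Leukocyte miRNAs (4 of 5 with a count, miR-142a-3p listed at 0 at a locus that overlaps another) summed to 1151 to 1332 CPM in young and 891 to 1010 CPM in old. Embryonic stem cell miRNAs of the miR-290 cluster, which are typical of the cells in which the Sfmbt2 block is best known, were all at 0 in the 8 of 9 names that were matched, and 5 of these 8 loci overlapped no other locus. The leukocyte sum was lower in all old libraries, and the fall was that of miR-155-5p, from 715 ± 102 CPM in young to 405 ± 23.6 CPM in old (SD, n = 3 each), while the means of miR-223-3p, miR-150-5p and miR-142a-5p were not lower in old. What part these other cell types have in the cluster's values was not tested.

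The cluster made up a small and even part of the vesicle miRNAs. It held 871, 1017 and 908 counts in young replicates 1 to 3 and 539, 863 and 768 counts in old replicates 1 to 3. As a share of all counts this was 0.0591% over the series (95% Wilson interval 0.0575 to 0.0608, counting error only), with 0.0596 to 0.0597% in the young libraries and 0.0555 to 0.0609% in the old ones. Of the 70 identifiers, 50 (71.4%) had a count in some library, 23 had one in every library and 20 were at 0 throughout. Over all 1966 identifiers the share with a count was 45.3%, and in the other large imprinted miRNA cluster of the mouse, Dlk1-Dio3 on chromosome 12, it was 46.1% of 115. These shares rest on unlike numbers of loci per identifier. The 70 cluster identifiers sum 139 loci, against 116 loci for the 115 and 2110 for the 1966. What part this has in the higher share was not tested. Each library showed 36 to 39 cluster identifiers.

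The counts were concentrated on few mature miRNAs. The miR-467 family had 10 identifiers and 52.4% of the cluster's counts, and the miR-669 family 29 identifiers and 36.1%. The miR-466 family, with 25 identifiers, held 8.72%, and miR-297, with 6 identifiers, 2.76%. Filtering on low counts kept 317 identifiers of the table (16.1%), 17 of them from the cluster (24.3% of its 70), and these 17 held 92.1% of the cluster's counts. The lowest total that passed was 54 counts over 6 libraries (miR-669c-5p), and the highest that did not was 49 (miR-669p-5p), followed by miR-466b-5p and miR-669e-5p with 45 each. The 33 untested members with a count were too sparse to be tested, and 21 of them had 1 to 10 counts in all.

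The most abundant member was miR-467a-5p (MIMAT0003409, 10 loci), at 161, 134 and 123 CPM in young replicates 1 to 3 and 68.9, 113 and 152 CPM in old replicates 1 to 3. Old replicate 1 was the lowest library and the groups overlapped. It ranked only 127th among the 317 tested identifiers by mean level. The next was miR-467e-5p (MIMAT0005293, 1 locus at chr2:10505731-10505752), at 87.0, 98.6 and 99.7 CPM in young and 122, 105 and 121 CPM in old libraries. All 3 old libraries were above all 3 young ones. The third, miR-669m-5p (MIMAT0017346, 2 loci), had 47.0, 64.8 and 56.5 CPM in young and 43.9, 59.8 and 44.3 CPM in old libraries, with overlapping groups.

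Further down, miR-467c-5p (MIMAT0004885, chr2:10473941-10473962) had 33.7, 49.6 and 36.8 CPM in young and 17.0, 51.3 and 41.2 CPM in old libraries. Old replicate 1 was again the lowest and old replicate 2 the highest. The 12 loci of miR-669a-5p (MIMAT0003477) gave 41.4, 32.7 and 26.7 CPM in young and 58.9, 42.0 and 27.2 CPM in old libraries, and here old replicate 1 was the highest. The single locus of miR-669l-5p (MIMAT0009418, chr2:10468989-10469010) gave 28.8, 23.0 and 31.1 CPM in young and 29.0, 28.5 and 31.9 CPM in old libraries, nearly level across all 6. These 6 miRNAs, all 5p arms, together held 65.2% ± 0.368 of the cluster's counts in the young group and 66.1% ± 3.58 in the old group (SD, n = 3 libraries each).

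**Figure D2:**
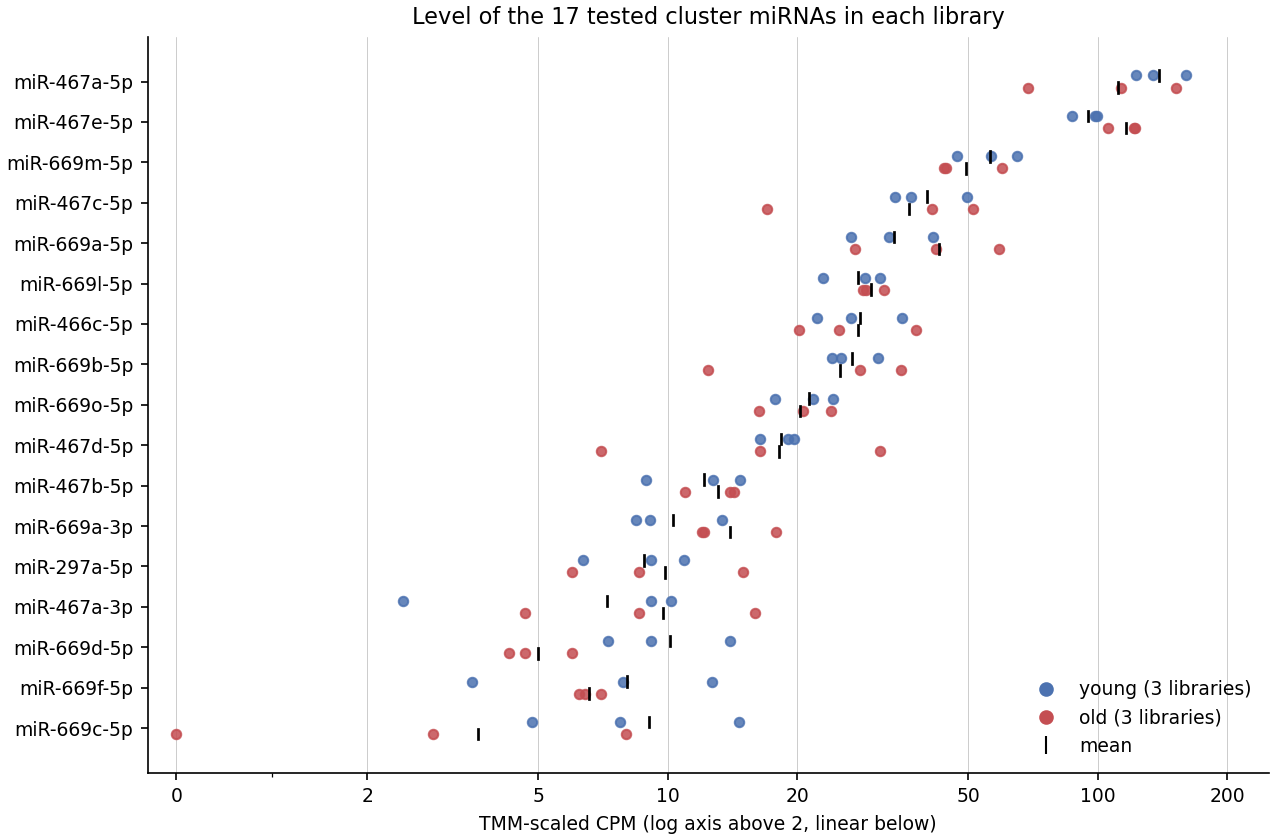
TMM-scaled CPM of the 17 tested cluster miRNAs in each of the 6 libraries, with 3 young (blue) and 3 old (red) points and the group means as black bars; the axis is logarithmic above 2. The 2 groups overlap in all rows but miR-467e-5p and miR-669d-5p.

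Nearly all counts came from the 5p arm. The 33 identifiers of 5p arms held 93.6% of the cluster's counts (95% Wilson interval 92.9 to 94.3, counting error only), and the 37 of 3p arms held 6.36%. A count was present for 30 of the 33 members on the 5p arm and for 20 of the 37 on the 3p arm, and 15 of the 17 tested members were 5p arms. The share of the 3p arms was 5.74% ± 1.65 in the young group and 7.58% ± 1.97 in the old group (SD, n = 3 libraries each), with overlapping ranges of 3.83 to 6.77% and 6.14 to 9.83%.

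Hairpins of the same mature miRNAs were grouped, which gave 32 groups with both arms in the table, 30 of them with a count. The 5p arm had more counts in 26 of these and the 3p arm in 4. All 17 groups with at least 50 counts had more counts on the 5p arm. The contrast was sharpest in miR-467e, where the 3p arm had 0 of 870 counts, which allows a share of up to 0.345%. Likewise miR-467c had 0 of 330 counts on the 3p arm, a share of up to 0.909%, and miR-669l had 0 of 238, a share of up to 1.26%. In miR-669m the 5p arm had 448 counts and the 3p arm 2.

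The arms were less uneven elsewhere, in hairpins named here after their values were seen. The 3p share was 5.90% in miR-467a (67 of 1135 counts, 95% Wilson interval 4.67 to 7.43) and 24.5% in miR-669a (100 of 408 counts, 20.6 to 28.9). These intervals pool the libraries and leave out the spread between them. By library, the 3p share ran from 1.77% (young replicate 2) to 18.8% (old replicate 1) in miR-467a and from 16.9 to 39.7% in miR-669a. It was higher in miR-669a in 5 of 6 libraries and lower in old replicate 1, with 16.9% against 18.8%, and the difference was not tested. In miR-466b the 3p arm had 27 of 72 counts (37.5%, 27.2 to 49.0). The 4 groups with more 3p counts were sparse. miR-297b had 2 counts on the 5p and 11 on the 3p arm, miR-466d 13 and 14, miR-466e 6 and 8, and miR-466p 5 and 6. For miR-297b alone among these 4 did the Wilson interval of the 3p share, 57.8 to 95.7%, lie above an even split.

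**Figure D3:**
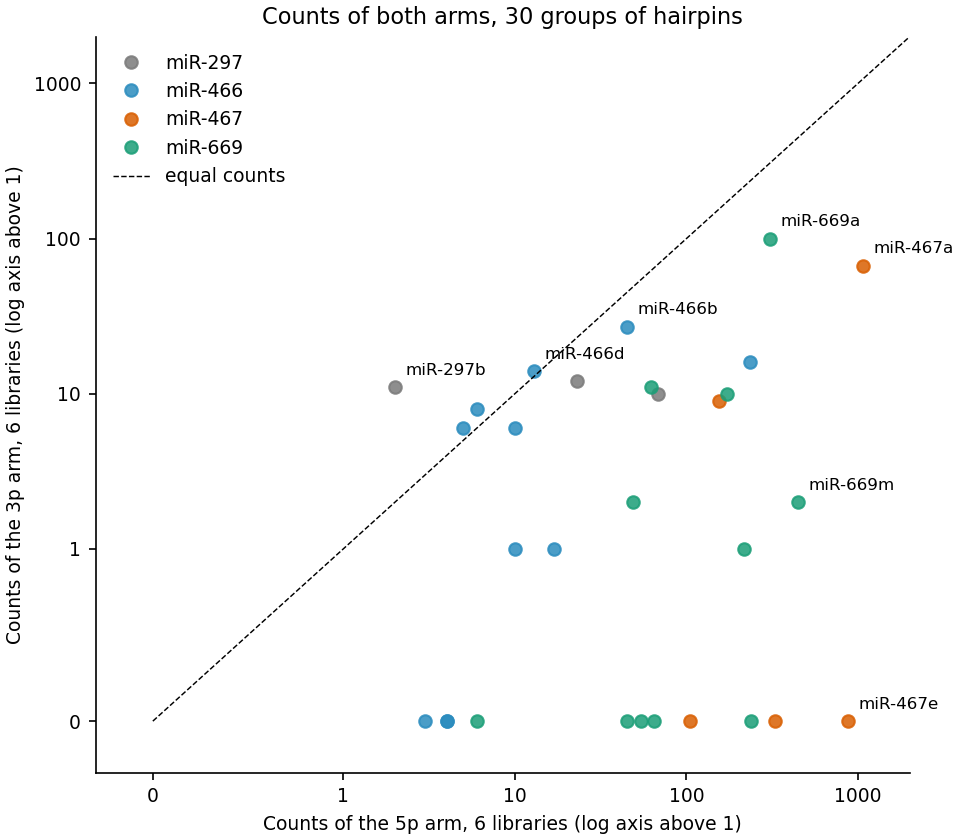
Counts of the 5p arm (horizontal) and of the 3p arm (vertical), summed over 6 libraries, for the 30 groups of hairpins with both arms in the table and a count; both axes are logarithmic above 1 and the dashed line marks equal counts. The 26 points below the line have more 5p counts, and the 4 above it are sparse.

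Copies of the better covered mature miRNAs had similar counts. The 10 copies of miR-467a-5p had 97 to 116 counts each over 6 libraries, a variance of 0.447 times the mean, where counting error alone gives a ratio near 1. The copies of miR-669m-5p had 223 and 225 counts, the 3 of miR-466c-5p 69 to 83 and the 12 of miR-669a-5p 19 to 33. Among the copies of miR-297a-5p, the 3 in the intron had 21 to 24 counts, against 11 at the chromosome 7 copy. The most uneven of the better covered pairs was miR-669p-5p, with 19 and 30 counts. The sparse miR-466b-3p was also uneven, with 0 to 8 counts at 8 copies and a variance of 2.37 times the mean. Reads of identical copies cannot be assigned to one of them, so that counts per copy do not give the output of a hairpin. Members of a family with identical or near-identical sequences can also share reads. The split between such members is uncertain, as are the totals and arm shares that rest on it.

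**Figure D4:**
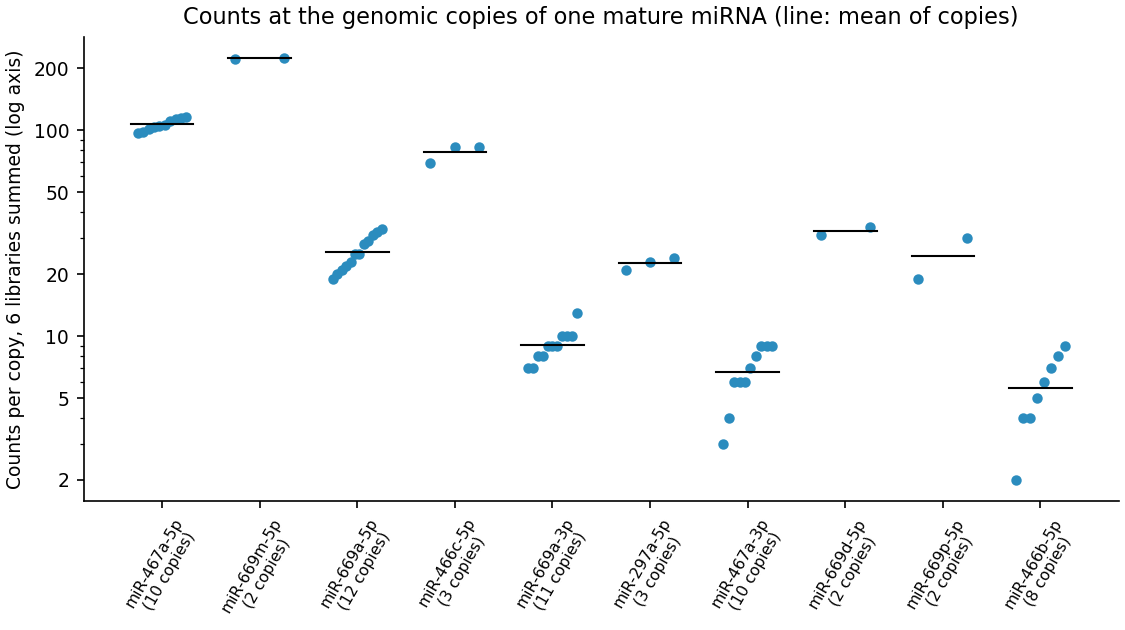
Counts at each genomic copy in the intron, summed over 6 libraries on a log axis, for the cluster miRNAs with several copies and at least 30 counts; points are copies in order of their counts and black lines the mean of the copies. The 10 copies of miR-467a-5p lie between 97 and 116 and those of miR-669m-5p at 223 and 225.

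Old and young vesicles were then compared. The cluster total was 611, 615 and 577 CPM in young replicates 1 to 3 and 538, 615 and 597 CPM in old replicates 1 to 3. The means were 601 ± 21.3 and 583 ± 40.0 CPM (SD, n = 3 each), an old to young ratio of 0.970, and the groups overlapped. No test was made on sums, since the cluster was taken up for study with earlier results of these data known, although its rows were then taken by position. Of the 17 tested members, 0 were called at an adjusted p of 0.05 by edgeR's quasi-likelihood test (Benjamini-Hochberg adjustment over 317 identifiers), against 5.05% of all identifiers tested (16, of which 11, or 3.47%, were higher and 5, or 1.58%, lower in old). The count over all identifiers moved with single libraries, to 5, 7 and 6 without young replicates 1, 2 and 3 and to 49 and 4 without old replicates 1 and 2, while the cluster count was 0 in each but the fit without old replicate 1, where it was 1 (miR-669c-5p). With only 17 members, 0 calls is near the share of 5.05%. At an unadjusted p of 0.05, edgeR called 0 of the 17, against 22.4% of all identifiers. The median SE of the log2 fold change was 0.365 in the cluster and 0.273 over all identifiers tested. A change of the same size is harder to call at a larger SE, and the contrast does not show that the cluster was stable. What part the SE has in the contrast was not tested. DESeq2 also called 0 of the 17, against 6.94%, but gave no adjusted p for 4 of them (miR-467a-3p, miR-669d-5p, miR-669f-5p and miR-669c-5p).

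The log2 fold changes, old over young, lay on both sides of 0. They were positive in 8 members and negative in 9, with a median of -0.01, beside a median of 0.05, 53.6% positive and 46.4% negative over all 317. In the Dlk1-Dio3 cluster, 14 identifiers were tested, 11 were positive and the median was 0.38. At the adjusted threshold edgeR called 0 of them (lowest adjusted p 0.0501) and DESeq2 called 1. At an unadjusted p of 0.05, edgeR called 5 of the 14, all higher in old, against 22.4% of all identifiers. Their median SE was 0.334. The old libraries lay above the young ones for 5 of the 14, against 13.6% of all tested. The difference between both clusters was not tested. The 3 old libraries lay above the 3 young ones for 1 cluster member, miR-467e-5p, against 13.6% of all tested, and below them for 1, miR-669d-5p, against 12.6%. A share of 1 in 17 is no larger than that background.

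Values within the miR-467 family did not go one way. The log2 fold change was -0.31 ± 0.26 (SE) for miR-467a-5p, with an adjusted p of 0.554 in edgeR's quasi-likelihood test and a 95% interval from -0.85 to 0.23. For miR-467e-5p it was 0.29 ± 0.22, with an edgeR adjusted p of 0.517 and an interval from -0.18 to 0.75. The intervals leave room for changes of a size that 3 libraries a group cannot resolve. Within libraries, the ratio of miR-467a-5p to miR-467e-5p counts was 1.85, 1.36 and 1.23 in young and 0.566, 1.07 and 1.26 in old replicates 1 to 3. The ratio was below 1 in old replicate 1 alone, the shallowest library, and the other 5 lay between 1.07 and 1.85. The log2 fold change of miR-467a-5p was -0.04 without that library and -0.59 without old replicate 3. The other members were miR-467c-5p at -0.11 ± 0.34, miR-467d-5p at 0.01 ± 0.43, miR-467b-5p at 0.12 ± 0.43 and miR-467a-3p at 0.39 ± 0.59, none of which passed the test. The family total was 313 ± 15.3 CPM in young and 306 ± 61.4 CPM in old libraries.

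The miR-669 family held both the most negative and the most positive values of the cluster. The most negative, miR-669c-5p, had 7.72, 4.84 and 14.6 CPM in young and 7.99, 2.85 and 0 CPM in old libraries, which overlapped. Its log2 fold change was -1.42 ± 0.75, with an adjusted p of 0.267 in edgeR's quasi-likelihood test. It rested on 54 counts and moved with single libraries: in edgeR it was -2.52 without old replicate 1 (adjusted p 0.0407), -0.80 without old replicate 3 (adjusted p 0.537) and -0.86 without young replicate 3 (adjusted p 0.704). Next, miR-669d-5p had 9.12, 7.26 and 14.0 CPM in young and 5.99, 4.27 and 4.66 CPM in old libraries. All old libraries were below the young ones, with 6 counts in each against 12 to 22, and the log2 fold change was -1.03 ± 0.54 (edgeR adjusted p 0.267). Without young replicate 1 or young replicate 3, miR-669d-5p did not pass the filter. In the other 4 fits that left out a library its log2 fold change was -1.21 to -0.92. At the other end, both arms of miR-669a had positive values, 0.34 ± 0.32 for the 5p and 0.44 ± 0.44 for the 3p arm, and did not pass the test.

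The remaining miR-669 members did not pass it either, with miR-669m-5p at -0.18 ± 0.27, miR-669l-5p at 0.11 ± 0.31, miR-669b-5p at -0.09 ± 0.37, miR-669o-5p at -0.07 ± 0.35 and miR-669f-5p at -0.31 ± 0.56. Their family total was 220 ± 5.83 CPM in young and 210 ± 33.5 CPM in old libraries. By arm, the summed miR-669 3p members were 12.9 ± 1.89 CPM in young and 17.8 ± 3.43 CPM in old, the one sum by family and arm whose groups did not overlap. Among all tested identifiers, 13.6% were higher and 12.6% lower in old without overlap, so that such a case is common. Of the 126 counts in this sum, 100 were of miR-669a-3p, whose own groups overlapped. The 5p members of the family summed to 207 ± 5.84 and 192 ± 36.9 CPM.

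The families of low abundance had 1 tested member each. For miR-466c-5p, the log2 fold change was -0.01 ± 0.34, and the miR-466 total was 51.5 ± 9.45 CPM in young and 51.3 ± 6.91 CPM in old libraries. For miR-297a-5p it was 0.19 ± 0.50, and the miR-297 total was 16.9 ± 6.90 and 15.7 ± 5.29 CPM. Over the whole cluster, 5p arms summed to 567 ± 26.8 CPM in young and 540 ± 48.1 CPM in old libraries, and 3p arms to 34.4 ± 9.47 and 43.7 ± 8.10 CPM, both with overlapping groups. The spread was larger in old than in young libraries for the totals of miR-467 and miR-669. In old replicate 1, miR-467 was 45.1% and miR-669 43.6% of the cluster's counts, and in old replicate 3 the shares were 61.2% and 28.8%. In the young libraries miR-467 stayed between 51.0 and 53.6%.

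**Figure D5:**
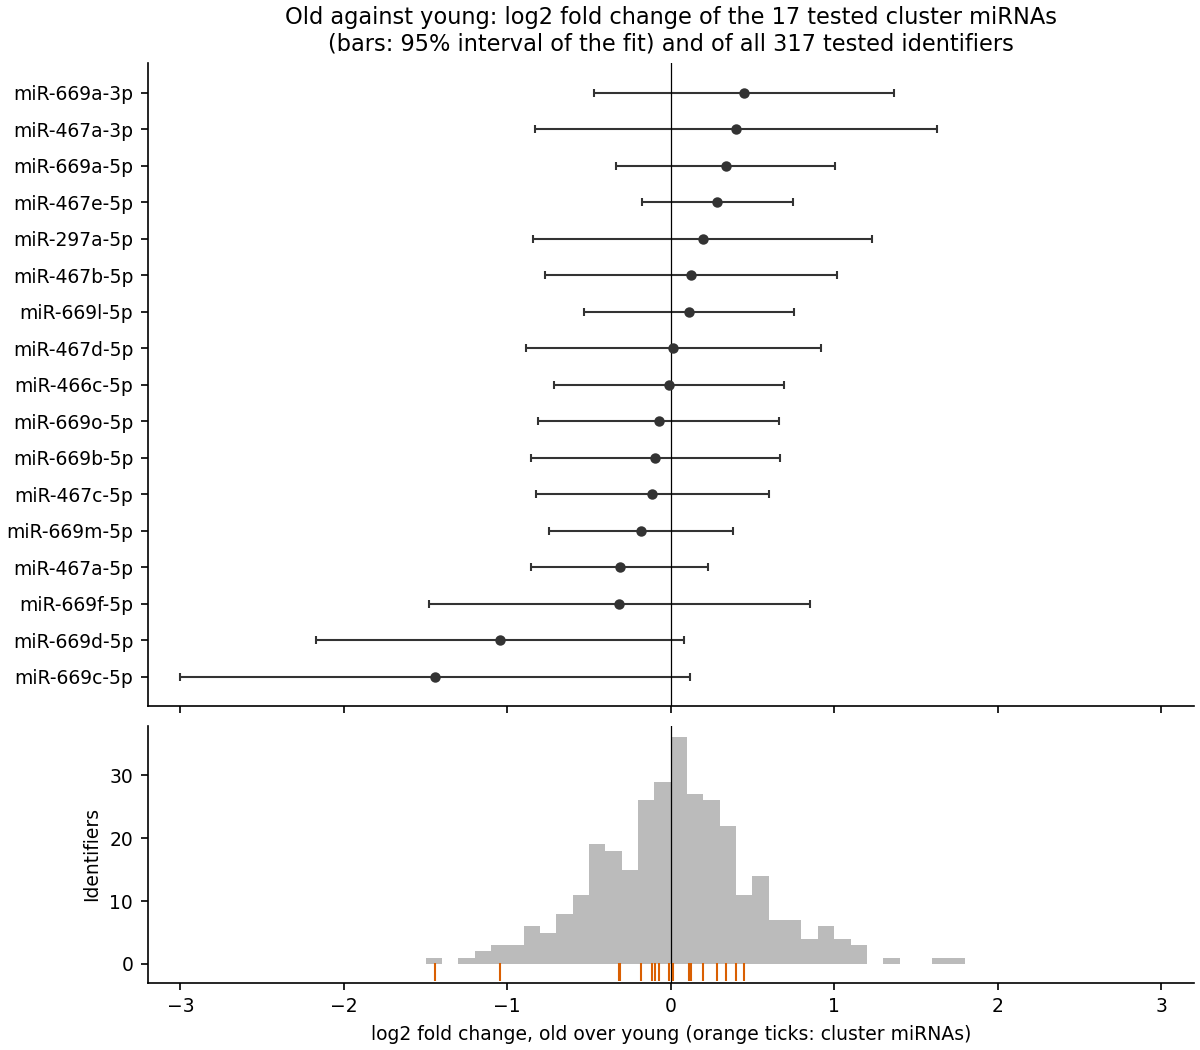
Log2 fold change, old over young, of the 17 tested cluster miRNAs with the 95% interval of the edgeR fit (upper panel), above the distribution over all 317 tested identifiers with the cluster miRNAs as orange ticks (lower panel). All 17 intervals include 0, and the miRNAs lie on both sides of it.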

How the data were processed

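The deposited values are raw counts, 1 per library and mature miRNA locus, made with featureCounts 2.0.6, per the file headers. Per the file headers the command set no strand, overlap or multi-mapping option. Reads covering more than 1 feature therefore go uncounted and strand is not used. How reads that map to several copies were placed or counted is not known from the sources used here. The levels, zeros and arm shares of the cluster depend on this handling. Identifiers with several copies were not empty, as each of the 10 copies of miR-467a-5p had 97 to 116 counts. The submitters' processing notes name BWA and mm10; its version and settings, like the trimming, were not given in the sources used here.

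From these counts, loci were named by position from GENCODE M21 hairpins (tolerance of 3 bases) and arms by position in the hairpin, and counts were summed per mature identifier. The whole table was fitted with edgeR's quasi-likelihood test (4.0.16, R 4.3.3) after filterByExpr (minimum count 10, minimum total 15) and TMM scaling, two-sided, with Benjamini-Hochberg adjustment over 317 identifiers, with a threshold of 0.05. Standard errors and intervals come from the unshrunken coefficient and its p. DESeq2 1.42.0, other scalings and filters, loci fitted singly, a replicate block and leaving out each library were the alternatives. The fit was tested on simulated data. Libraries were grouped by their titles. All tested members are named, the 6 most abundant with a value per library; values per library for miR-669c-5p and miR-669d-5p and the single arms and copies were chosen after their values were seen. The members and lists were chosen with earlier results of these data known. Intervals and limits of counts of 0 (3 counts of the total) cover counting error only. An exact permutation test of 3 against 3 libraries cannot go below 0.1 and was not used.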

Additional observations from a re-analysis of the deposited data

How the results depend on the processing

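Leaving out each library gave 0 to 1 cluster calls; the call was miR-669c-5p without old replicate 1 (log2 fold change -2.52, edgeR adjusted p 0.0407). The cluster median then ranged from -0.27 (without old replicate 2) to 0.029 (without young replicate 2), and calls over all identifiers from 4 to 49 (4 to 25 higher, 0 to 24 lower), with 49 without old replicate 1. All other settings gave 0 cluster calls. Over all identifiers, total count scaling called 7 (6 higher, 1 lower), single loci called 3 lower and DESeq2 10 lower. With the replicate block 17 were called (12 higher, 5 lower) and 0 in the cluster. Deviations from the group mean correlated at -0.09, 0.02 and -0.13 between same-numbered libraries, beside -0.08 to 0.17 between differently numbered ones. These values show no pairing by number but cannot exclude it, as deviations within groups of 3 depend on one another.

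No member whose sign changed passed the test. Signs changed for miR-466c-5p (0.012 with total count scaling, 0.46 at 1 of its 2 loci tied at 83 counts, where the other gave -0.13), and for miR-467d-5p (-0.0022 with total count scaling, -0.0073 in DESeq2, -0.11 with the replicate block). Leaving out libraries moved 9 members across 0: miR-297a-5p (-0.25 to 0.45), miR-466c-5p (-0.31 to 0.21), miR-467a-3p (-0.071 to 0.76), miR-467b-5p (-0.044 to 0.25), miR-467c-5p (-0.44 to 0.23), miR-467d-5p (-0.59 to 0.39), miR-669b-5p (-0.43 to 0.24), miR-669f-5p (-0.68 to 0.18) and miR-669o-5p (-0.18 to 0.064). In all, 117 of 122 fold changes under other settings and 83 of 100 under left-out libraries kept direction and side of the threshold. With copies in the intron alone, miR-297a-5p no longer passed the filter. Among members that kept their sign, leaving out libraries moved miR-467a-5p between -0.59 and -0.04 and miR-669c-5p between -2.52 and -0.80. A count is worth 0.605 to 0.999 CPM, which limits what can be read from the 33 sparse members. The causes were not tested.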
